A study of Caenorhabditis elegans with 4 samples.

Results

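The cytosolic ribosomal protein genes of Caenorhabditis elegans were taken as every row of the footprint count table whose gene symbol was rpl- or rps- followed by a number, leaving out rpl-11.1, rpl-11.2, rpl-25.1 and rpl-25.2. This gave 72 genes of 20179 in the table, 41 of the large subunit (rpl) and 31 of the small subunit (rps), and all 72 passed the filter on low counts. Ribosome-protected fragments had been sequenced from whole young adult worms in 2 libraries of a double mutant, cey-1(rrr12) cey-4(ok858), and 2 libraries of N2, the standard wild-type strain. CEY-1 and CEY-4 are Y-box proteins, which coat messenger RNA, and the series ties the family to polysome formation by its title. Whether the duplicate libraries came from separate cultures is not stated in the labels, so p-values measure the spread between these libraries, which may be technical. A footprint level depends both on how much of a message is present and on how many ribosomes it carries, and in whole worms fewer cells of a type and less RNA per cell cannot be told apart.

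The large subunit of the ribosome joins amino acids at the peptidyl transferase centre and passes the growing chain through its exit tunnel, and the small subunit reads the codons of the message. Apart from the acidic stalk proteins, a ribosome holds a single copy of each protein, and the genes are among the most heavily translated in growing and egg-producing tissue. Levels are given as CPM, counts scaled to a common library total after correction with TMM factors. A log2 fold change is cey-1 cey-4 over N2, with its standard error (SE), and a gene is said to have risen or fallen where the adjusted p was under 0.05.

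Footprints on both mutated genes were nearly lost: cey-4 had 1.87 and 1.53 CPM in the mutant libraries, against 263 and 267 CPM in N2, and cey-1 had 3.85 and 4.14 CPM in the mutant, against 69.8 and 73.6 CPM in N2. Library totals were 27180732 and 22303560 counts in the mutant and 32913332 and 27867396 counts in N2, so counting error is small for all but the rarest of the 72 genes. Tissue markers also moved, beside 17.4% of all genes tested higher and 16.6% lower in the mutant. The 12 oocyte and eggshell markers, all of them lower in the mutant, held 0.265% and 0.260% of the counts in the mutant and 0.513% and 0.529% in N2, and the 12 muscle markers, 11 of them higher, held 2.69% and 2.69% in the mutant and 1.497% and 1.588% in N2. Of 12 intestinal markers 6 rose and 2 fell, with 1.24% and 1.24% of counts in the mutant and 1.08% and 1.09% in N2. Of 12 germline markers 4 fell, none rose and 1 was not tested, with 0.333% and 0.333% in the mutant and 0.351% and 0.364% in N2. The 12 sperm markers all rose, the hypodermal list had 5 higher and none lower, and the neuronal list 1 higher and 3 lower. No marker was at 0 in any library, and the part of these tissue shifts in the values below was not tested.

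As a class, the ribosomal protein genes held a slightly smaller share of the footprints in the mutant. The 72 genes took 11.5% and 11.7% of all counts in the cey-1 cey-4 libraries and 12.2% and 12.8% in the N2 libraries, so the groups did not overlap, and the ratio of the means was 0.925. The exact 2-sided permutation test over the 4 libraries gave p = 0.333, the smallest p that 2 libraries against 2 allow. The median log2 fold change over the 72 genes was -0.11, with quartiles of -0.15 and -0.072, beside a median of 0.012 over the 13086 genes tested. Of the 72, 67 had a negative log2 fold change, and in 56 both mutant libraries lay below both N2 libraries (77.8%, against 31.3% of all genes tested).

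With edgeR's quasi-likelihood test, p adjusted by Benjamini-Hochberg over all genes tested, 22 of the 72 were lower, 2 were higher and 48 did not pass. That is 30.6% lower and 2.78% higher, where 16.6% of all genes tested were lower, 17.4% higher and 34% either. Most of these genes are abundant. Among the 361 other genes with a mean CPM at or above that of the fourth lowest member, 109 fell (30.2%) and 87 rose, and in 168 (46.5%) both mutant libraries lay below both N2 libraries. The members' share of fallers was thus near that of other abundant genes. The number of fallers changed with any 1 library left out, but a genotype then has 1 library and lends no spread of its own. The members' median was -0.088 without cey-1 cey-4 replicate 1 and -0.13 without cey-1 cey-4 replicate 2. It was -0.14 without N2 replicate 1 and -0.076 without N2 replicate 2. The number of fallers also depended on scaling, at 14 with upper-quartile factors (12.2% of all genes lower). It was 70 when libraries were centred on somatic marker genes (43.8% of all genes lower), which shifted all genes by -0.23 (log2). Under that centring the members' median was -0.34 and that of all genes -0.22.

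**Figure D1:**
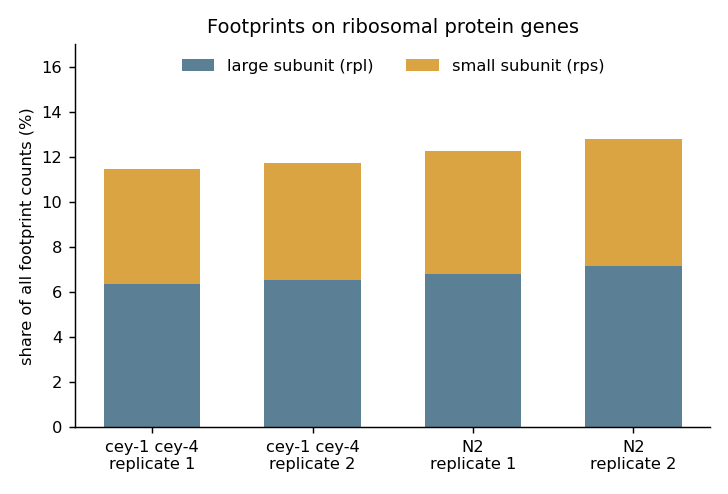
Share of all footprint counts in each library that fell on the 41 large subunit genes (lower part of each bar) and the 31 small subunit genes (upper part), in percent. Both mutant bars, at 11.5% and 11.7%, are lower than both N2 bars, at 12.2% and 12.8%, and the division between the subunits is alike in all 4.

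Large and small subunit genes shifted by nearly the same amount. The large subunit genes held 6.37% and 6.55% of all counts in the mutant and 6.81% and 7.15% in N2, and the small subunit genes 5.09% and 5.16% in the mutant and 5.44% and 5.65% in N2. Within the class, the large subunit therefore took 55.6% and 55.9% of the counts in the mutant libraries and 55.6% and 55.8% in the N2 libraries. These shares overlapped, and their means differed by 0.0449 percentage points, less than the SD between replicates (0.209 in the mutant, 0.154 in N2; exact 2-sided permutation p = 0.667). The median log2 fold change was -0.11 for the large subunit and -0.11 for the small subunit. In the large subunit 12 of 41 genes were called lower and 1 higher, and in the small subunit 10 of 31 lower and 1 higher. That is 29.3% and 32.3% lower, near the 30.2% of the other abundant genes, where 16.6% of all genes tested were lower.

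The mean log2 level of large subunit genes less that of small subunit genes was 0.020 higher in the mutant (exact 2-sided permutation p = 0.333). A gene's length cancels from this difference. It rested on the rare gene rpl-42, since without that gene alone it was -0.0084 (exact 2-sided permutation p = 0.333), and without the 3 members of lowest count -0.0059 (exact 2-sided permutation p = 0.667).

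**Figure D2:**
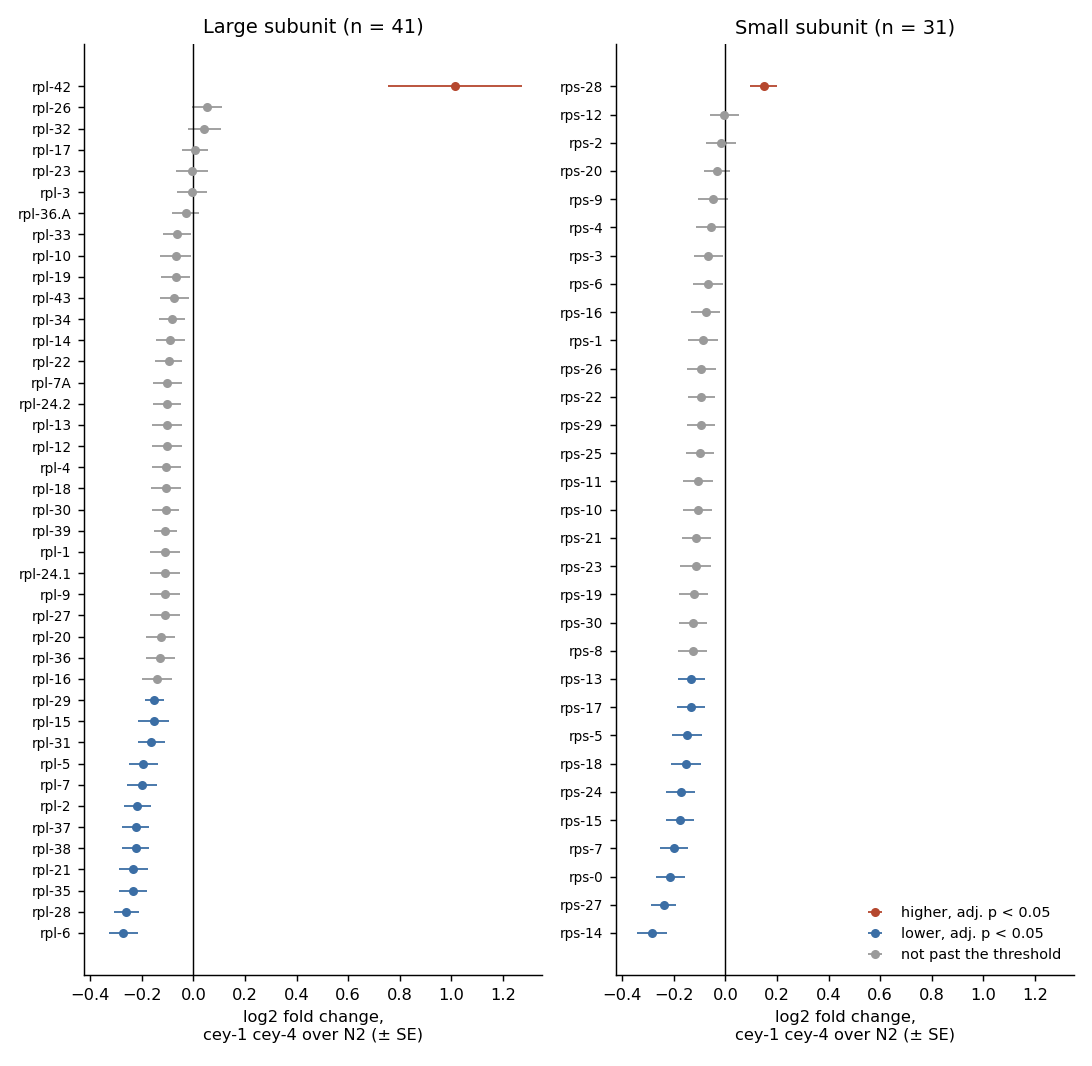
Log2 fold change of cey-1 cey-4 over N2 for each of the 72 genes, by subunit, with bars of 1 SE from the edgeR fit and colours for genes past an adjusted p of 0.05. Points lie between -0.28 and 0.15, 67 of 72 of them left of 0, except that of rpl-42 at 1.01.

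The largest falls were found in both subunits. rps-14, a protein of the small subunit platform next to the path of the message, had 1712 and 1681 CPM in the mutant libraries and 2052 and 2082 CPM in the N2 libraries. The groups were far apart relative to their spread, and the log2 fold change was -0.28 (edgeR adjusted p = 4.16e-05, SE 0.057), which is 0.821 of the N2 level. rpl-6, a large subunit protein found in eukaryotes and not in bacteria, had 2134 and 2083 CPM in the mutant and 2551 and 2538 CPM in N2, a log2 fold change of -0.27 (edgeR adjusted p = 9.33e-05, SE 0.057). Again both mutant libraries were low and alike.

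rpl-28, likewise a eukaryotic protein of the large subunit, had 648 and 630 CPM in the mutant, against 737 and 793 CPM in N2. It had the lowest adjusted p of the class, 7.21e-06 (edgeR; log2 fold change -0.26, SE 0.048). rps-27, a zinc-finger protein of the small subunit, had 695 and 649 CPM in the mutant, against 788 and 798 CPM in N2, and fell by 0.24 on the log2 scale (edgeR adjusted p = 4.06e-05, SE 0.048). In both genes the highest mutant library stayed under the lowest N2 library.

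rpl-35, which sits at the mouth of the exit tunnel where factors meet the new chain, had 1165 and 1170 CPM in the mutant, against 1369 and 1377 CPM in N2 (log2 fold change -0.23, edgeR adjusted p = 3.68e-04, SE 0.054). The libraries within each genotype differed by less than 10 CPM. rpl-38, known in mice for its part in the translation of Hox messages, had 861 and 888 CPM in the mutant, against 1058 and 984 CPM in N2, and fell by 0.22 (edgeR adjusted p = 3.64e-04, SE 0.052). rps-0, the worm relative of the vertebrate laminin receptor precursor, had 3972 and 3825 CPM in the mutant, against 4427 and 4617 CPM in N2, and fell by 0.21 (edgeR adjusted p = 0.00171, SE 0.056), but did not pass without cey-1 cey-4 replicate 2 (-0.19, edgeR adjusted p = 0.095).

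rps-7, a small subunit protein with a role in ribosome assembly in other eukaryotes, had 1187 and 1156 CPM in the mutant, against 1386 and 1303 CPM in N2, and fell by 0.20 (edgeR adjusted p = 0.00279, SE 0.055). Without cey-1 cey-4 replicate 2 it did not pass (-0.18, edgeR adjusted p = 0.061). rps-15, whose tail reaches the decoding centre, had 1180 and 1168 CPM in the mutant, against 1260 and 1392 CPM in N2, and fell by 0.18 (edgeR adjusted p = 0.00934, SE 0.056). It was among the least steady of these calls: it did not pass without cey-1 cey-4 replicate 1 (-0.19, edgeR adjusted p = 0.0531), without cey-1 cey-4 replicate 2 (-0.17, 0.0822) or without N2 replicate 2 (-0.10, 0.219). No member fell by more than 1.22-fold.

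**Figure D3:**
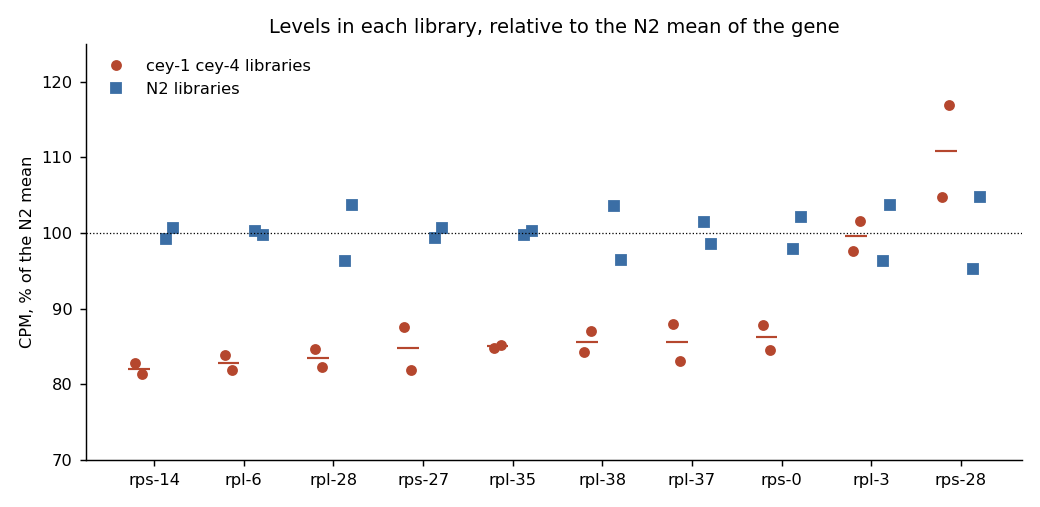
CPM in each library as a percentage of the gene's N2 mean for 10 members, with 2 mutant libraries (circles, line at their mean) left of 2 N2 libraries (squares). The first 8 genes fell and their groups do not overlap, rpl-3 overlaps, and rps-28 is higher in the mutant by a narrow gap.

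The 2 genes that rose were rps-28 and rpl-42. rps-28, a small protein at the place where the message leaves the small subunit, had 471 and 525 CPM in the mutant libraries and 428 and 470 CPM in the N2 libraries. The lower mutant library and the higher N2 library were nearly equal. The log2 fold change of 0.15 (SE 0.052) gave an edgeR adjusted p of 0.0400, but DESeq2 gave an adjusted p of 0.388. The call was lost without cey-1 cey-4 replicate 2 (0.067, edgeR adjusted p = 0.45) and without N2 replicate 1 (0.079, 0.334), and centring on somatic markers turned its direction (-0.083, edgeR adjusted p = 0.224).

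rpl-42 had 45 and 47 counts in the mutant libraries and 33 and 23 counts in the N2 libraries, or 1.65 and 2.11 CPM in the mutant and 1.00 and 0.827 CPM in N2. The exact Poisson 95% intervals, which cover counting error only, were 1.202 to 2.206 and 1.55 to 2.81 CPM in the mutant and 0.690 to 1.41 and 0.524 to 1.24 CPM in N2. The log2 fold change was 1.01 (edgeR adjusted p = 0.00125, SE 0.260), but DESeq2 gave an adjusted p of 0.0646. The interval of the first mutant replicate overlapped both N2 intervals, so counting error is large for this gene. Whether its few reads are shared with a near-identical gene is not given in the sources used here, which leaves both its level and its change uncertain.

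Among members that share a number, rpl-7 fell and the others of these pairs did not pass. rpl-24.1, which bridges the subunits, had 1677 and 1757 CPM in the mutant and 1796 and 1906 CPM in N2, and rpl-24.2, whose yeast relative acts in the assembly of the large subunit, had 46.8 and 45.6 CPM in the mutant and 48.6 and 50.6 CPM in N2. Neither passed, with log2 fold changes of -0.11 (SE 0.058) and -0.10 (SE 0.053) and edgeR adjusted p of 0.146 and 0.14. rpl-7 had 2250 and 2272 CPM in the mutant and 2522 and 2666 CPM in N2, and fell by 0.20 (edgeR adjusted p = 0.00451, SE 0.058; adjusted p = 0.0666 without cey-1 cey-4 replicate 1). rpl-7A, an unrelated protein of the large subunit, had 1564 and 1621 CPM in the mutant and 1647 and 1767 CPM in N2 and did not pass (-0.10, edgeR adjusted p = 0.18, SE 0.057). rpl-36 and rpl-36.A, also unrelated to each other, had log2 fold changes of -0.13 (SE 0.057) and -0.029 (SE 0.052), and neither passed (edgeR adjusted p = 0.0736 and 0.715). Without N2 replicate 1, rpl-36, rpl-24.1 and rpl-7A passed as lower (edgeR adjusted p = 0.0012, 0.0107 and 0.012), and with the replicate number as a block rpl-36 and rpl-24.1 did (edgeR adjusted p = 0.0106 and 0.0388).

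rpl-37, a zinc-binding protein of the large subunit, had 48.5 and 45.8 CPM in the mutant, against 55.9 and 54.3 CPM in N2, and fell by 0.22 (edgeR adjusted p = 4.42e-04, SE 0.053). The class is defined by symbol, and RefSeq's table of the WBcel235 assembly names W01D2.1 as rpl-37.1. This gene, looked up after the values were seen, had 176 and 176 CPM in the mutant and 191 and 191 CPM in N2 (log2 fold change -0.12, edgeR adjusted p = 0.00896, SE 0.037). How the counting treated reads that match both copies is not given in the sources used here, so the split between them is uncertain.

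The remaining 69 members, without rpl-42, rpl-37 and rpl-24.2, ranged from 336 to 3972 CPM and from 365 to 4096 CPM in the mutant libraries and from 378 to 4427 CPM and from 400 to 4617 CPM in the N2 libraries. These levels are not divided by gene length, since coding lengths were not used here, so no order between genes is read from them. The SD of log2 CPM over the 69 was 0.723 and 0.721 in the mutant and 0.728 and 0.731 in N2. It was lower in both mutant libraries, with a difference of the means of -0.0073 (exact 2-sided permutation p = 0.333, the smallest possible). Over all 72 it was 1.57 and 1.55 in the mutant and 1.64 and 1.68 in N2, a difference of -0.098, which was 0.0019 without rpl-42 alone (exact 2-sided permutation p = 0.667).

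The proportions among members differed little between libraries. The class rule had left out rpl-11.1, rpl-11.2, rpl-25.1 and rpl-25.2, so the spread given here does not cover them. Their log2 fold changes ran from -0.24 (rpl-25.2) to 0.45 (rpl-11.2). The SD over the 69 genes of the log2 ratio of a mutant to an N2 library was 0.0567 to 0.119 in the 4 such pairs, and it was 0.0648 between the mutant libraries and 0.0576 between the N2 libraries. One mutant and N2 pair differed less than the replicates did, and 3 differed more. For all 2799 tested genes with a mean of at least 1000 counts, the same SD was 0.299 to 0.366 between genotypes, 0.171 between the mutant libraries and 0.0913 between the N2 libraries. That set includes the members and the mutated genes cey-1 and cey-4, and it reaches lower counts than the 69, so it is not matched to them. The correlation across the 72 members between log2 fold change and mean CPM was close to 0 (Spearman's rho = -0.036), a description over genes that share the same libraries and are not independent.

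**Figure D4:**
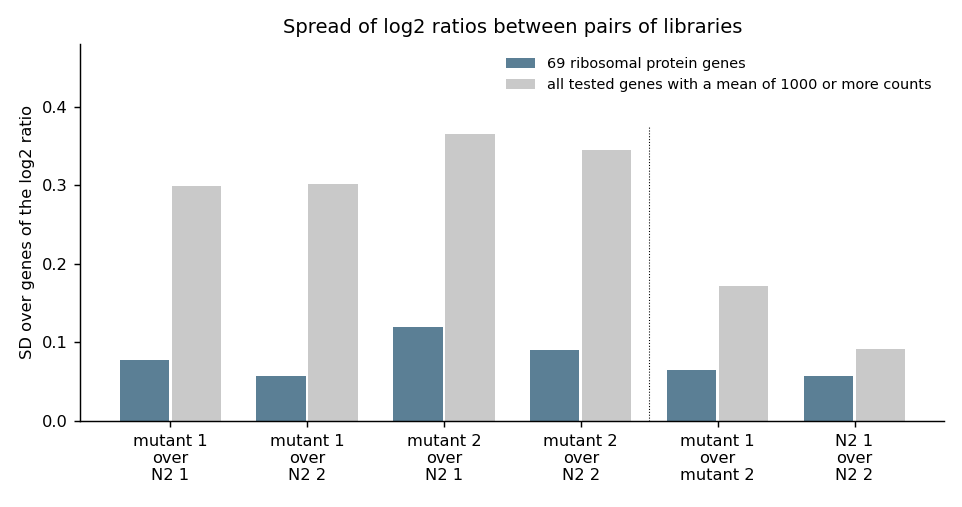
SD over genes of the log2 ratio between 2 libraries, for 69 ribosomal protein genes (dark bars) and for the 2799 tested genes with a mean of 1000 or more counts (pale bars), with the mutant over N2 pairs left of the dotted line and the replicate pairs right of it. The dark bars stay under 0.12 in every pair, and the pale bars reach 0.366. The pale set includes the members and the mutated genes cey-1 and cey-4.

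To see which genes changed their share of the class, the libraries were also scaled to the summed counts of the 72 members, a scaling chosen after the values were seen. On this scale 4 genes gained, 3 lost and 65 did not pass, where 25.5% of all genes tested were higher and 6.29% lower. The 3 that lost were rps-14, rpl-6 and rpl-28. rps-14 made up 1.501% and 1.431% of member counts in the mutant and 1.68% and 1.62% in N2, a change of -0.17 on the log2 scale (edgeR adjusted p = 0.00914, SE 0.054). rpl-6 changed by -0.16 (edgeR adjusted p = 0.0154) and rpl-28 by -0.14 (edgeR adjusted p = 0.019).

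Those that gained share were rps-28, rpl-26, rpl-32 and rpl-42. rps-28 made up 0.412% and 0.447% of member counts in the mutant and 0.349% and 0.367% in N2, a change of 0.26 (edgeR adjusted p = 1.35e-06, SE 0.045). rpl-26, at the rim of the exit tunnel, changed by 0.17 (edgeR adjusted p = 0.0112), and rpl-32, on the solvent side of the large subunit, by 0.16 (edgeR adjusted p = 0.0208), and both are named here because of these values. Scaled to the library, rpl-26 had 1295 and 1384 CPM in the mutant, against 1208 and 1376 CPM in N2, and rpl-32 had 1292 and 1467 CPM in the mutant, against 1249 and 1428 CPM in N2. Their groups overlapped on that scale, and the log2 fold changes of 0.052 and 0.043 did not pass.

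Sorted by place in the ribosome, the members gave medians between -0.12 and -0.068. The places are textbook assignments from yeast and mammalian ribosomes, and members named by place were chosen after their values were seen. Each member was counted at 1 place only, so a place does not list every protein that reaches it. The counts by place stand beside 16.6% of all genes tested and 30.2% of the other abundant genes lower. Of 6 proteins at the peptidyl transferase centre and the subunit interface, 1 fell and 5 did not pass, with a median log2 fold change of -0.068. rpl-2, a core protein of that centre, had 996 and 1019 CPM in the mutant, against 1174 and 1168 CPM in N2, and fell by 0.22 (edgeR adjusted p = 6.70e-04, SE 0.053). rpl-3, also near the centre, had 3939 and 4096 CPM in the mutant and 3885 and 4182 CPM in N2, with overlapping groups and a log2 fold change of -0.0058 (edgeR adjusted p = 0.952, SE 0.057). rpl-10, which helps to form the site where transfer RNA binds, had a log2 fold change of -0.068 and rpl-23 one of -0.0053, and neither passed.

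Of 6 proteins of the exit tunnel and its rim, 2 fell and 4 did not pass (median -0.11). rpl-31 fell by 0.16 beside rpl-35, whereas rpl-4 (-0.10), rpl-39 (-0.11) and rpl-17 (0.0053), which line the tunnel wall, did not pass. Of 4 proteins of the stalks and the central protuberance, only rpl-5 passed. rpl-5, which carries the small RNA of the large subunit into the ribosome, had 3915 and 3955 CPM in the mutant, against 4415 and 4584 CPM in N2, and fell by 0.19 (edgeR adjusted p = 0.00459, SE 0.056). rpl-1 (-0.11), rpl-12 (-0.10) and rpl-9 (-0.11) did not pass.

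On the small subunit, 1 of 6 proteins at the entry of the message and the decoding side fell, and 5 did not pass (median -0.091). rps-3, at the entry channel, had 3506 and 3662 CPM in the mutant and 3703 and 3802 CPM in N2, a log2 fold change of -0.066 (edgeR adjusted p = 0.399, SE 0.057). rps-2 beside it had -0.018, and rps-23 of the decoding centre -0.12, and neither passed. Of 6 proteins at the exit of the message and on the platform, 3 fell (rps-14, rps-0 and rps-5), 1 rose (rps-28) and 2 did not pass, with a median of -0.12. The largest fall of the 72 and the rise of rps-28 were both at this place, whose range overlapped those of the other places. Of 9 further proteins of the head, beyond those counted at the places above, 2 fell and 7 did not pass (median -0.098). rps-18 fell by 0.15 and rps-17 by 0.13, both close to the threshold (edgeR adjusted p = 0.0348 and 0.0484). The other 25 large subunit genes had 8 lower and 1 higher, and the other 10 small subunit genes had 4 lower, with medians of -0.11 and -0.12.

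**Figure D5:**
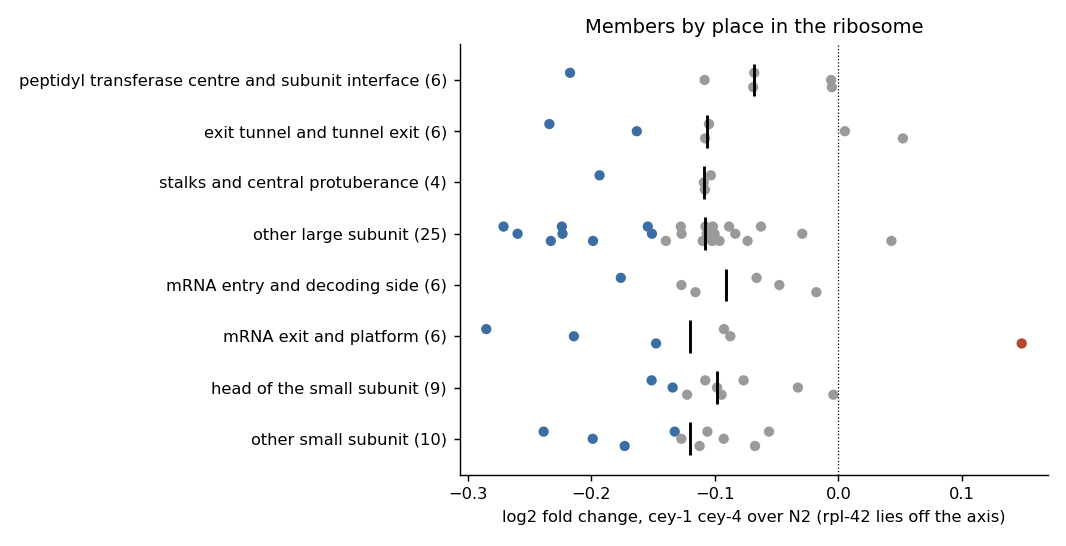
Log2 fold change of cey-1 cey-4 over N2 by place in the ribosome, with 1 point per gene and each gene at 1 place only. The number of genes is in brackets, a line marks each median, and blue or red points are genes that fell or rose. rpl-42, at 1.01, lies off the axis and is not drawn, but it is included in the bracketed number and the median. The medians lie between -0.12 and -0.068, and the ranges of the places overlap.

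Among 6 ribosomal protein genes under other names, 1 fell, where 16.6% of all genes tested and 30.2% of the other abundant genes were lower. ubq-2, which encodes the large subunit protein L40 fused to ubiquitin, had 1089 and 1080 CPM in the mutant, against 1207 and 1355 CPM in N2, and fell by 0.24 (edgeR adjusted p = 3.60e-04, SE 0.056). The other 5 did not pass, and the median of the list was -0.041. rack-1, a scaffold protein on the head of the small subunit, had 4831 and 5068 CPM in the mutant and 4743 and 5159 CPM in N2, with overlapping groups. The stalk genes rla-0, rla-1 and rla-2 had log2 fold changes of -0.087, -0.020 and -0.0077, and ubl-1, a ubiquitin fusion of the small subunit, one of -0.063.

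The elongation factors bring transfer RNA and move the ribosome along the message. They went both ways: 5 of 8 fell, 2 rose and 1 missed the threshold (median -0.15). Of all genes tested, 16.6% were lower and 17.4% higher. Of the 361 abundant genes outside the class, 109 fell (30.2%) and 87 rose. eef-1A.1, a carrier of aminoacyl-tRNA, had 17619 and 18263 CPM in the mutant, against 19614 and 20567 CPM in N2, and fell by 0.16 (edgeR adjusted p = 0.00915, SE 0.051). Its relative eef-1A.2 had 1023 and 1097 CPM in the mutant, against 751 and 791 CPM in N2, and rose by 0.46 (edgeR adjusted p = 1.39e-11, SE 0.052). The eIF5A gene of the germline, iff-1, fell by 0.26 and its relative iff-2 rose by 0.31. eef-1B.1, eef-1G and eef-1B.2 fell by 0.26, 0.19 and 0.13, and eef-2, the translocase, had -0.053 and did not pass. The call for eef-1A.1 was lost without mutant replicate 1 (-0.14) or 2 (-0.19), and with upper-quartile factors (-0.12, edgeR adjusted p = 0.0672). That for eef-1G was lost without either mutant library (-0.19 each), and that for iff-2 with somatic centring (0.080, edgeR adjusted p = 0.0757). The call for eef-1B.2 was lost without cey-1 cey-4 replicate 1 (-0.074) or N2 replicate 2 (-0.071). It was also lost with DESeq2 (-0.14, adjusted p = 0.0607) and upper-quartile factors (-0.088, edgeR adjusted p = 0.187).

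Of the ribosomal genes left out of the class, rpl-11.2 (log2 fold change 0.45) and rpl-25.1 (0.20) rose and rpl-11.1 (-0.18) and rpl-25.2 (-0.24) fell. Among the 69 abundant members, which by the class rule do not include these genes, only rps-28 rose.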

How the data were processed

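The authors deposited whole-number counts and, in a second table, log2 values, which were matched within 0.0006 by scaling each count to the lowest library total, adding 8 and taking log2. Per the submitters' processing notes the aligner was Bowtie. Not given in the sources used here are the build, the annotation, the counting rule and the use of strand. Of 20182 rows, 18778 had a symbol in the gene name table, and 3 that repeat a gene were left out.

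The gene test was edgeR 4.0.16 in R 4.3.3 (TMM, filterByExpr with a minimum count of 10, robust glmQLFit, glmQLFTest, 2-sided, genotype as the only term) over 13086 genes. The threshold was an adjusted p (Benjamini-Hochberg) of 0.05. Each SE is the log2 fold change divided by the square root of F. On simulated counts for this comparison over 13086 genes, 16% of genes changed 1.2-fold were recovered, and 76% of those changed 1.5-fold. Only 50 genes were changed at each fold, drawn from genes of all levels, whereas 34% of genes tested were called in the data. These percentages therefore do not give the recovery for the 72 members. Replicates differed by more than counting noise over the 72 members (chi-square per degree of freedom 34.3 in the mutant and 33.0 in N2), so no library was a repeat deposit of another. Totals were 22303560 to 32913332 counts. PCR reads without molecular identifiers are not independent molecules.

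The members, lists and marker lists were chosen with earlier results of these data known. Named genes were, per subunit, up to 5 members higher and 5 lower with the lowest p, members sharing a number, and 2 lists of translation genes; other names were chosen after their values were seen. Levels per codon had been planned, but no coding length was used here, so that part of the rule and of the tests was not run. Alternatives were DESeq2 1.42.0, other scalings and filters, limma 3.58.1 with voom or on the deposited log2 values, a replicate block and leaving out each library; a genotype left with 1 library then takes its spread from the other genotype.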

Additional observations from a re-analysis of the deposited data

How the results depend on the processing

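The median over the 72 members stayed negative in 13 of 13 planned settings and turned positive only when libraries were scaled to the members' own sum, which sets it near 0 (0.0069 over all members, 0.0065 for the large and 0.0073 for the small subunit). It was -0.0615 (large subunit -0.0614, small subunit -0.0616) with upper-quartile factors and -0.34 (-0.34 and -0.34) with somatic centring. Leaving out 1 library gave medians of -0.14 to -0.076 over all members and -0.15 to -0.0765 for the small subunit. Fallers, with the share of all genes tested that were lower in the same setting, numbered 22 as reported (16.6%), 33 with DESeq2 (9.77%), 14 with upper-quartile factors (12.2%), 70 with somatic centring (43.8%), 43 with limma-voom (16.4%), 41 with limma on the deposited log2 values (16.3%), 42 with the replicate block (18%), 3 on the members' own sum (6.29%) and 11 to 45 without 1 library (11.5% to 14.3%). Risers numbered 2, but 0 with DESeq2, 1 with somatic centring, 1 with at least 50 counts in 2 libraries (a filter that removes rpl-42), 4 on the members' own sum and 1 to 2 without 1 library. What a shared replicate number stands for is not stated in the labels: deviations of same-numbered libraries correlated at 0.236 over 8636 genes and 0.436 over 69 members, and the block raised the fallers to 42. The difference in the large subunit share was -0.10 to 0.19 percentage points without 1 library (-0.103 without cey-1 cey-4 replicate 2, -0.0638 without N2 replicate 1). The difference in mean log2 level between subunits was -0.0059 without the 3 rarest members and -0.0084 without rpl-42 alone, which also turned that in the SD of log2 CPM (0.0019). The difference in the members' share of all counts stayed negative, at -1.21 to -0.664 percentage points without 1 library. Genes near 0 changed sign, with no call in the changed direction. These were rack-1 (0.0015 with library totals, 0.046 with upper-quartile factors, 0.010 with at least 50 counts, 0.00049 with limma-voom, 0.0025 on the deposited values, 0.00046 with the block, -0.062 to 0.060 without 1 library), rla-2 (0.039 with upper-quartile factors, 0.0028 with at least 50 counts, -0.042 to 0.024 without 1 library), rla-1 (0.027 with upper-quartile factors, -0.13 to 0.092 without 1 library) and rpl-36.A (0.017 with upper-quartile factors, -0.099 to 0.036 without 1 library), while rps-28 was -0.083 with somatic centring. The causes were not tested. Settings that need coding lengths were not run. Of 32 named genes, 10 lost their call in some setting and 11 that had not passed gained one, each of the 11 as lower with somatic centring. limma-voom also called rpl-36, rpl-24.1 and rpl-7A lower, and limma on the deposited values rpl-36 and rpl-24.1. Among the members, counting error is large for rpl-42.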
